A study of Mus musculus with 9 samples.

Results

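The cytoskeletal genes described here are the listed liver genes whose symbol marks a tubulin, a tubulin folding cofactor or chaperonin subunit, an actin or actin-related protein, an actinin, a tropomyosin, a cofilin or profilin, a myosin, a keratin, a kinesin or a dynein subunit. The rule matched 58 of the 5608 listed genes, and the 50 with a mean TPM (transcript abundance, normalised for length and library total) of at least 1 over all libraries were kept, out of 4665 genes tested at this limit. The 8 genes below it were Kif3a, Kif7, Kif20a, Kif21b, Krt10, Myo1h, Myo15b and Tube1, with means of 0.0311 to 0.946 TPM. The rule also caught 3 genes that act elsewhere: Cflar, which encodes the caspase regulator c-FLIP, and Actr5 and Actr6, whose nuclear proteins belong to chromatin remodelling complexes.

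The study asked how the liver responds to intermittent fasting and to a fasting-mimicking diet. Bulk RNA-seq of liver was carried out in 9 wild-type (wt) C57BL/6 J mice, 3 per group. FED mice had free access to standard diet, IF mice were kept without food for 24 h 2 times a week, and FMD mice received the low-calorie fasting-mimicking diet for 3 days. No transgene or drug is named, and age and sex were not given in the sources used here. FED and IF mice are numbered 1, 2 and 3 and FMD mice 1, 2 and 4, and values are listed in this order.

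Microtubules are polymers of alpha- and beta-tubulin, nucleated on gamma-tubulin. New tubulin and actin chains are folded inside the cytosolic chaperonin TRiC/CCT, and tubulin then passes through folding cofactors. Tubulin mRNA is also controlled by its own product, since excess soluble tubulin leads to decay of tubulin mRNAs while they are being translated. Kinesins and dynein carry vesicles, mitochondria and lipid droplets along microtubules. Actin filaments, branched by the Arp complex, cut by cofilin and pulled by myosins, form the cortex and the bile canaliculi of hepatocytes.

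Since TPM is length-normalised, levels of different genes can be set side by side. The listed genes held 26.3 to 29.3% of all TPM in FED, 32.9 to 34.9% in IF and 34.9 to 43% in FMD libraries, and the highest value was that of FMD 1. The median log2 fold change of all genes tested was 0.24 in IF vs FED, 0.48 in FMD vs FED and 0.24 in FMD vs IF. Each comparison is therefore also given after median scaling, which divides a library by the median ratio of its genes to the geometric mean library. The scaling factor was 0.815 to 0.843 in FED, 0.962 to 1.03 in IF, 1.43 in FMD 1, 1.14 in FMD 2 and 1.09 in FMD 4. A gene was called at an adjusted p under 0.05 (limma on log2(TPM + 1), Benjamini-Hochberg over all genes tested) with a change of over 1.5-fold in TPM + 1. Rose and fell refer to called genes. In bulk liver, fewer cells of a type and less RNA per cell cannot be told apart.

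Of the 3 listed alpha-tubulins, Tuba1a and Tuba1b fell in IF livers as deposited, and Tuba4a joined them after median scaling. In FMD vs FED livers the gamma-actin gene Actg1, the beta-tubulin Tubb6, the tropomyosin Tpm4 and the kinesin Kif21a rose both as deposited and after scaling, whereas the 3 chaperonin subunits rose as deposited and 0 of them after scaling. In IF vs FED, 5 of the 50 cytoskeletal genes rose and 3 fell, against 10.3% higher and 1.59% lower among all genes tested. After median scaling, 0 rose and 5 fell, against 3.69% and 3.45%. In FMD vs FED, 20 rose and 0 fell, against 35.5% and 1.59%. After scaling, 4 rose and 1 fell, against 5.49% and 5.64%. In FMD vs IF, 5 rose and 0 fell, against 4.67% and 0.472%, and after scaling 3 rose and 0 fell, against 1.11% and 1.11%. The median log2 fold change of the 50 genes was 0.24, 0.51 and 0.28 in these comparisons, and -0.03, -0.01 and 0.03 after scaling. So the middle of the group moved with all listed genes, and the genes described next lie at its ends. IF vs FED and FMD vs FED use the same FED libraries.

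**Figure D1:**
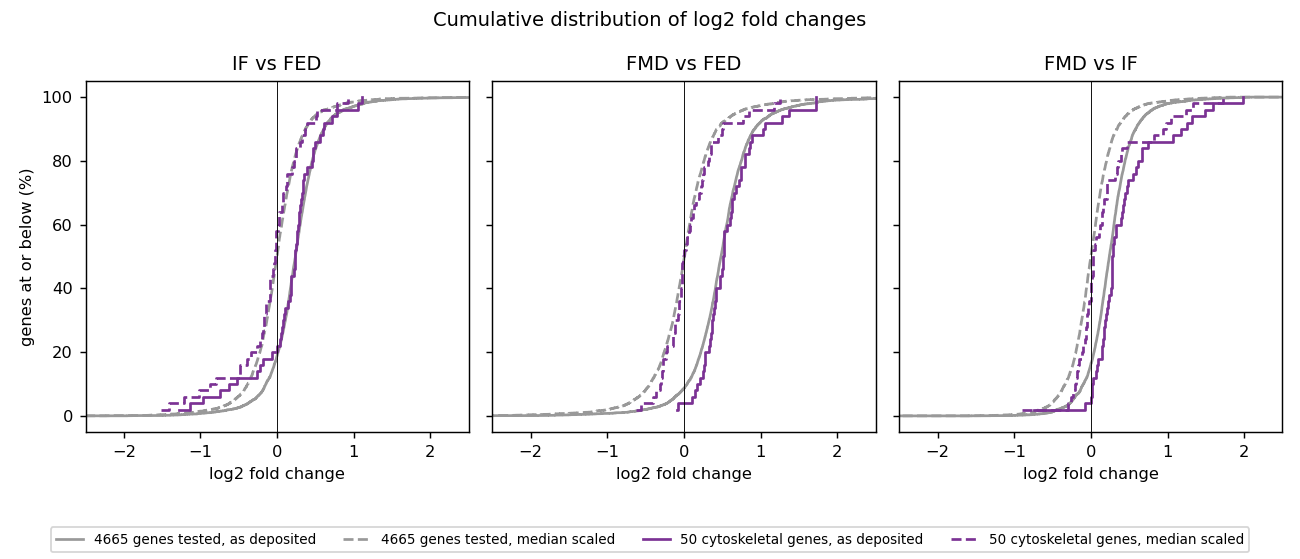
Cumulative share of genes (percent, vertical) at or below each log2 fold change (horizontal) for the 4665 genes tested (grey) and the 50 cytoskeletal genes (purple), as deposited (solid) and after median scaling (dashed). The curves share their middle (IF vs FED medians of 0.24 and 0.24 as deposited), and the cytoskeletal genes have a longer lower end in IF vs FED and a longer upper end in FMD vs IF.

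The library FMD 1 stood apart. It was the highest FMD library for 41 of the 50 cytoskeletal genes (82%, against 71.8% of all genes tested), and after scaling for 31 (62%, against 35.7%). The median SD of log2(TPM + 1) over the 50 genes was 0.108 for FED, 0.135 for IF and 0.346 for FMD mice, and 0.211 in FMD mice after scaling. Without FMD 1, 12 cytoskeletal genes rose in FMD vs FED, against 1077 of all 4665 genes tested. After scaling 2 rose and 3 fell, against 260 higher and 256 lower among all genes tested. Without FMD 1, 5 rose in FMD vs IF, and 3 after scaling, against 137 and 49 of all genes tested. Each of the 9 libraries was also left out in turn, and ranges of the log2 fold change given in parentheses below run over these 9 fits.

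All 5 alpha- and beta-tubulins had higher values in every FED mouse than in any IF mouse, and 2 of them, the alpha-tubulins Tuba1a and Tuba1b, fell. Among all genes tested, 60.6% had no overlap between IF and FED, in either direction. Of the 50 cytoskeletal genes, 33 (66%) had no overlap over both directions, and in 8 all IF values lay below all FED values. The share of all genes tested in this lower direction alone is not given here. Tuba1b (NCBI gene 22143) was at 70.8, 57.3 and 57.3 TPM in FED mice, 28.8, 22.6 and 31.6 TPM in IF mice and 144, 38.0 and 61.3 TPM in FMD mice. The IF values lie below both other groups, and the FMD values, led by FMD 1, spread across the FED range. The log2 fold change was -1.14 (SE 0.37, adjusted p = 0.0460) in IF and 0.17 (SE 0.37, adjusted p = 0.676) in FMD mice against FED. Tuba1a (NCBI gene 22142), a less abundant alpha-tubulin, was at 4.45, 6.18 and 5.73 TPM in FED mice, 2.18, 1.12 and 1.76 TPM in IF mice and 9.60, 5.07 and 2.35 TPM in FMD mice. IF and FED did not overlap, whereas the FMD mice ranged from just above the IF mice to above FED. Its log2 fold change in IF vs FED was -1.27 (SE 0.34, adjusted p = 0.0207). Tuba4a (NCBI gene 22145), the most abundant listed tubulin, was at 144, 110.1 and 117 TPM in FED mice, 95.4, 83.1 and 78.5 TPM in IF mice and 134, 94.9 and 124 TPM in FMD mice. The IF mice were the lowest with no overlap with FED, and FMD 2 lay within the IF range. Its log2 fold change of -0.52 (SE 0.16, adjusted p = 0.0365) in IF vs FED was within the fold limit, so it was not called as deposited.

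After median scaling, Tuba1a, Tuba1b and Tuba4a fell in IF vs FED, by -1.51, -1.42 and -0.80 on the log2 scale (adjusted p = 0.00813, 0.0180 and 0.00653). Tuba4a also fell in FMD vs FED, with -0.62 (SE 0.14, adjusted p = 0.0130). Its FMD vs FED value as deposited was -0.08 (SE 0.16, adjusted p = 0.674), with the groups overlapping. Under quantile normalization, 0 of the 50 genes were called lower in FMD vs FED. As deposited, the Tuba1a call in IF was lost when FED 2, FED 3, IF 2 or IF 3 was left out (-1.41 to -1.11), and the Tuba1b call when any FED or IF library was left out (-1.24 to -1.0). After scaling, the calls of Tuba1a (-1.64 to -1.35) and Tuba4a (-0.88 to -0.68) in IF held in all 9 fits, while that of Tuba1b was lost without FED 1, IF 1 or IF 2 (-1.55 to -1.27). The scaled Tuba4a call in FMD vs FED was lost without FED 1 or FMD 2 (-0.75 to -0.50). Without FMD 1, Tuba1a and Tuba1b too were called lower in FMD vs FED after scaling, at -0.86 and -0.77.

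Of the 2 beta-tubulins, Tubb6 rose in the FMD group and Tubb5 was not called. Tubb6 (NCBI gene 67951), a minor isotype in most tissues, was at 3.48, 2.78 and 3.02 TPM in FED mice, 2.66, 2.59 and 2.0 TPM in IF mice and 32.6, 8.67 and 6.47 TPM in FMD mice. All 3 FMD mice lie above all FED and IF mice, and FMD 1 lies far above the other two. Tubb6 rose in FMD vs FED by 1.72 (SE 0.43, adjusted p = 0.00633) and in FMD vs IF by 1.98 (SE 0.43, adjusted p = 0.0301), and after scaling by 1.25 and 1.73 (adjusted p = 0.0366 and 0.0372). The call in FMD vs FED held in all 9 fits as deposited (1.06 to 2.14), with 1.06 when FMD 1 was left out. After scaling it was lost when any FED or IF library was left out (0.70 to 1.59), and it held at 0.70 without FMD 1. The call in FMD vs IF was lost without FED 1, FED 3 or any IF library (1.32 to 2.41), and after scaling without any 1 of the FED or IF libraries (1.17 to 2.07). Tubb5 (NCBI gene 22154), a widely expressed beta-tubulin, was at 36.0, 27.1 and 29.7 TPM in FED mice, 21.3, 15.3 and 17.9 TPM in IF mice and 93.6, 26.1 and 35.2 TPM in FMD mice. The IF values were below all others, but its log2 fold change of -0.74 (SE 0.36, adjusted p = 0.155) in IF vs FED was not called, nor was that of 0.51 (SE 0.36, adjusted p = 0.222) in FMD vs FED. Tubg1 (NCBI gene 103733), gamma-tubulin, was at 29.7, 26.1 and 23.8 TPM in FED mice, 30.0, 28.7 and 26.5 TPM in IF mice and 33.9, 26.5 and 35.1 TPM in FMD mice. Its groups overlapped in all comparisons, with log2 fold changes of 0.10 in IF and 0.25 in FMD vs FED.

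Of the 6 tubulins, 0 rose and 2 fell in IF vs FED, against 10.3% and 1.59% of all genes tested. The median log2 fold change of the tubulins was -0.63, against 0.24 for all genes tested. After scaling 0 rose and 3 fell, against 3.69% and 3.45%, with a median of -0.91. In FMD vs FED, 1 rose and 0 fell, against 35.5% and 1.59%, with a median of 0.21, against 0.48. After scaling 1 rose and 1 fell, against 5.49% and 5.64%, and the median of the tubulins was -0.33. Their summed level was 289, 229.7 and 236 TPM in the FED, 180.3, 153 and 158 TPM in the IF and 448, 199 and 265 TPM in the FMD mice. Every IF sum lies below every other sum, and FMD 2 is the lowest of the remaining libraries. Shares within this sum do not depend on the scaling of a library. Tuba4a made up 49.1% ± 1.06 (SD, n = 3) of it among FED, 52.2% ± 2.34 among IF and 41.5% ± 9.96 among FMD mice. The share of Tuba1b was 24.6% ± 0.365 among FED, 16.9% ± 2.74 among IF and 24.8% ± 6.64 among FMD mice, and that of Tubb6 was 1.23% ± 0.0401, 1.48% ± 0.212 and 4.69% ± 2.44. Tubg1 took 10.6% ± 0.708, 17.4% ± 1.19 and 11.4% ± 3.30. For the Tuba1b and Tubg1 shares in IF vs FED, and for that of Tubb6 in FMD vs FED, the exact two-sided permutation test gave p = 0.1. That is the smallest p that 3 against 3 can give, so none of the 33 share comparisons made could pass a threshold of 0.05.

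**Figure D2:**
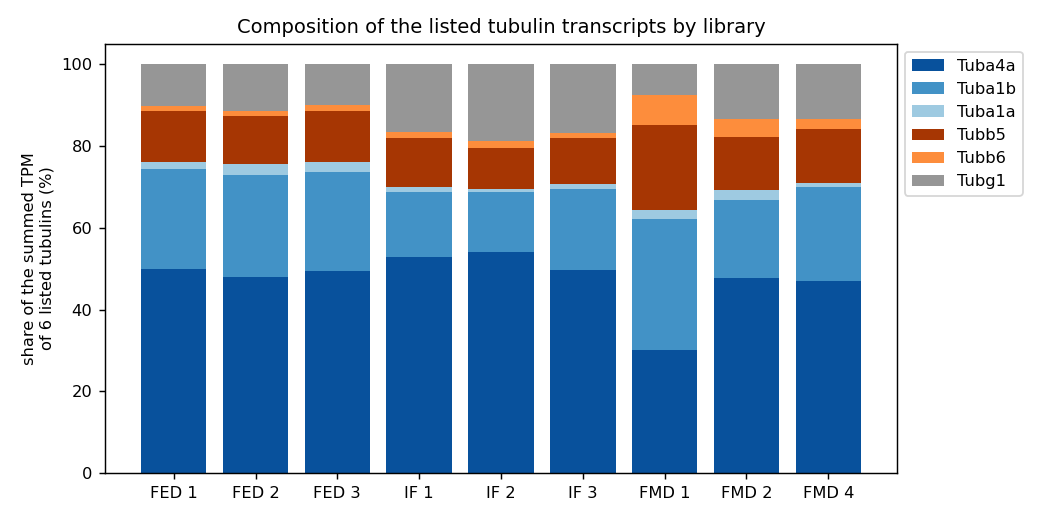
Share of each listed tubulin in the summed TPM of the 6 tubulins (percent, vertical) in each of the 9 libraries (horizontal). The 3 FED bars look alike, the IF bars hold less Tuba1b (16.9% on average against 24.6% in FED) and more Tubg1, and FMD 1 has the smallest share of Tuba4a (30.0%) and the largest share of Tubb6 (7.29%).

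Tuba1a and Tuba1b, which fell together in IF livers, are neighbours on chromosome 15 with 0 protein-coding genes between them in RefSeq, and transcripts of such similar genes can share reads, so the split between them is uncertain. Their upstream sequences, from RefSeq (build GRCm38.p6, minus strand for both, written 5′ to 3′), are given to show how far the windows before these neighbouring genes resemble each other. They hold the part of the 250 bases before the start that lies clear of annotated exons, which is 75 bases for Tuba1b (chr15:98934566-98934640) and 48 bases for Tuba1a (chr15:98953704-98953751). Neither stretch holds any of the 4 motifs searched, but CCAAT was found in the 250 bases before Tuba1a, outside the stretch printed.
Tuba1b: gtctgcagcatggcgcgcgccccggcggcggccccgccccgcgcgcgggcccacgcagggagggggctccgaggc
Tuba1a: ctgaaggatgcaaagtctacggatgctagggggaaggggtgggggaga

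Of the 50 genes, 42 matched a RefSeq promoter by gene identifier, with 48 entries among 32851. The 250 bases before the start were searched on both strands for the CArG box, the site read by serum response factor, for CCAAT, and for the short inverted repeats of the heat shock element, GAANNTTC and TTCNNGAA. A CArG box was found before 4 of these genes, Actg1, Arpc4, Myl6 and Myo1e, and in 1.47% of all entries. CCAAT was found before 19 genes and in 33.8% of all entries, GAANNTTC before 5 genes and in 6.69%, and TTCNNGAA before 2 genes and in 7.17%. A match describes the letters in the window and not a site in use.

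All 3 listed subunits of the chaperonin that folds tubulin and actin rose in FMD vs FED livers, against 35.5% of all genes tested, and 0 rose after scaling, against 5.49%. Tcp1 (NCBI gene 21454), which encodes subunit alpha, was at 57.1, 51.0 and 57.4 TPM in FED mice, 78.2, 75.6 and 77 TPM in IF mice and 153, 109 and 93.1 TPM in FMD mice. The groups do not overlap and are ordered FED, IF, FMD. Tcp1 rose by 1.06 (SE 0.16, adjusted p = 0.000673) in FMD vs FED, and its value in IF vs FED was 0.47 (SE 0.16, adjusted p = 0.0568). Cct3 (NCBI gene 12462) was at 67.4, 62.5 and 64.1 TPM in FED mice, 82.0, 70.6 and 68.8 TPM in IF mice and 155, 104 and 90.3 TPM in FMD mice, and Cct8 (NCBI gene 12469) at 61.0, 56.1 and 64.8 TPM in FED mice, 74.6, 75.2 and 69.3 TPM in IF mice and 126, 97.5 and 86.9 TPM in FMD mice. For both, every FMD mouse lies above every other mouse. Their log2 fold changes in FMD vs FED were 0.80 (SE 0.18, adjusted p = 0.00365) for Cct3 and 0.75 (SE 0.14, adjusted p = 0.00180) for Cct8. The calls of Tcp1 (0.86 to 1.22) and Cct8 (0.60 to 0.86) held in all 9 fits, and that of Cct3 was lost without FMD 1, at 0.58. After scaling, Tcp1 was at 0.51 (SE 0.10, adjusted p = 0.00727), within the fold limit. Tcp1 made up 30.6% ± 0.418 (SD, n = 3) of the summed TPM of the 3 subunits among FED, 34.4% ± 1.27 among IF and 35.0% ± 0.458 among FMD mice, with no overlap between FED and either diet (exact permutation p = 0.1 for both).

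Of the 2 tubulin folding cofactors, Tbca stayed near the median of all genes tested, and Tbcd was below it and not called. Tbca (NCBI gene 21371), which receives beta-tubulin from the chaperonin, was at 181, 168 and 177 TPM in FED mice, 219.8, 243 and 205 TPM in IF mice and 333, 244 and 248 TPM in FMD mice. It rose in FMD vs FED by 0.63 (SE 0.14, adjusted p = 0.00355), a call lost without FMD 1 (0.49), and stood at 0.08 after scaling. Tbcd, which handles the assembly and release of the tubulin dimer, was at 10.6, 9.09 and 10.6 TPM in FED mice, 12.5, 10.4 and 8.97 TPM in IF mice and 15.2, 11.8 and 9.20 TPM in FMD mice. Its log2 fold changes were 0.06 in IF and 0.21 in FMD vs FED, with adjusted p = 0.804 and 0.288. After scaling they were -0.19 and -0.29, with adjusted p = 0.324 and 0.111.

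The ratio of the summed tubulin TPM to the summed chaperonin TPM, a description chosen after the values were seen, was 1.56, 1.35 and 1.27 for FED, 0.768, 0.693 and 0.736 for IF and 1.03, 0.641 and 0.979 for FMD mice. All diet mice lie below all FED mice. This ratio is free of the scaling, and in FMD mice its numerator and denominator were both highest in FMD 1.

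**Figure D3:**
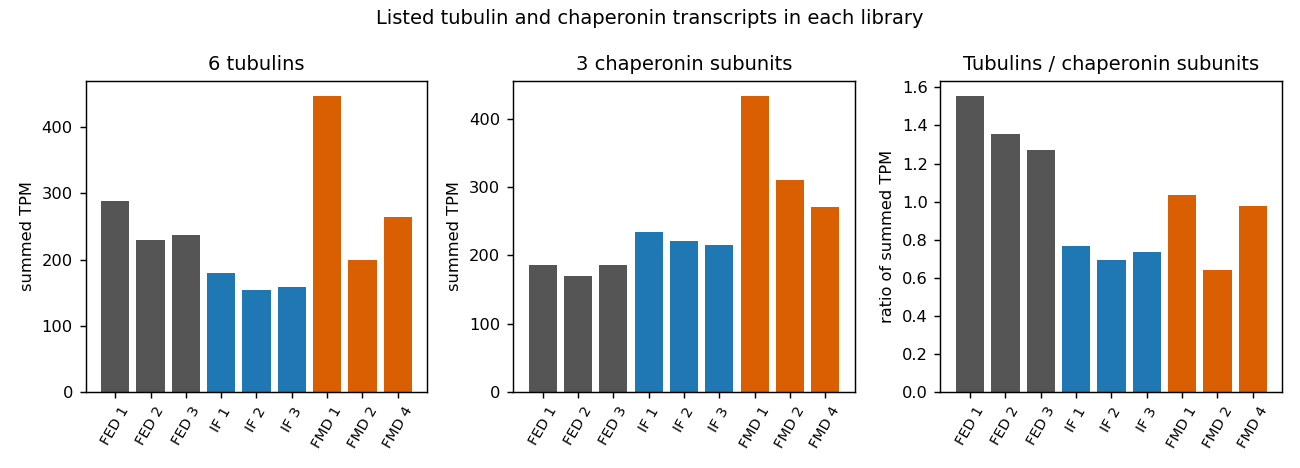
Summed TPM of the 6 listed tubulins (left), of the 3 listed chaperonin subunits (middle) and their ratio (right) in each library, with bars starting at 0. Tubulin sums are lowest in IF mice (153 to 180.3 TPM), chaperonin sums are highest in FMD mice (270.4 to 434 TPM), and the ratio is highest in FED mice (1.27 to 1.56).

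Gamma-actin was the actin gene in the table. Actg1 (NCBI gene 11465) was at 76.2, 62.4 and 66.7 TPM in FED mice, 150.5, 213 and 90.5 TPM in IF mice and 394, 233 and 127 TPM in FMD mice. All diet mice lie above all FED mice, IF and FMD mice overlap, and both diet groups vary widely. Actg1 rose in FMD vs FED by 1.72 (SE 0.38, adjusted p = 0.00351), in all 9 fits (1.32 to 2.14) and at 1.32 without FMD 1. After scaling its rise was 1.17 (SE 0.33, adjusted p = 0.0305), and this call was lost without FMD 1, FMD 2 or any FED library (0.89 to 1.51). In IF vs FED its value of 1.05 (SE 0.38, adjusted p = 0.0646) was not called. The window before Actg1 is shown because it holds both a CArG box and CCAAT, in capitals, starting 90 and 120 bases before the start and not overlapping (RefSeq, GRCm38.p6, chr11:120348543-120348745, minus strand, the first 203 of the 250 bases before the start, 5′ to 3′).
Actg1: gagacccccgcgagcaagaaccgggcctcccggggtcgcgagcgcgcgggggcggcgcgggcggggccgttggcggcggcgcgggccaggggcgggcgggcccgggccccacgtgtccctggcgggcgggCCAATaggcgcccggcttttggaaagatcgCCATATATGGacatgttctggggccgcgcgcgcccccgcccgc

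Actin-binding genes followed with smaller values. Actn4 (NCBI gene 60595), the actinin that crosslinks actin filaments outside muscle, was at 31.3, 34.9 and 37.9 TPM in FED mice, 52.0, 58.8 and 48.4 TPM in IF mice and 67.7, 62.8 and 52.9 TPM in FMD mice. FED mice were below all diet mice. It rose in IF by 0.60 (SE 0.13, adjusted p = 0.0102) and in FMD by 0.80 (SE 0.13, adjusted p = 0.000979) vs FED, the first call being lost without FED 1 or IF 2 (0.52 to 0.66), and after scaling it stood at 0.33 and 0.26, not called. The tropomyosins, which coat actin filaments, were called against FED in different diets, Tpm4 in FMD and Tpm2 in IF. Tpm4 (NCBI gene 326618) was at 9.39, 10.8 and 10 TPM in FED mice, 8.65, 8.73 and 7.99 TPM in IF mice and 48.6, 25.8 and 16.5 TPM in FMD mice. IF values lie just below FED, and every FMD mouse lies above both. Tpm4 rose by 1.37 (SE 0.29, adjusted p = 0.00291) in FMD vs FED and by 1.60 (SE 0.29, adjusted p = 0.0193) in FMD vs IF, and after scaling by 0.85 and 1.33 (adjusted p = 0.0232 and 0.0206). Without FMD 1 the 2 scaled values were 0.56, not called, and 1.04, called. The FMD vs IF calls were lost when any IF library was left out (1.20 to 1.95 as deposited and 1.04 to 1.61 scaled), and the scaled FMD vs FED call also without FMD 2 or any FED library (0.56 to 1.12).

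Tpm2 (NCBI gene 22004) was at 1.17, 1.87 and 2.33 TPM in FED mice, 7.08, 3.29 and 5.0 TPM in IF mice and 1.14, 3.23 and 3.93 TPM in FMD mice. The IF mice lie above all FED mice and overlap with the FMD mice, and FMD 1 was the lowest library of all. FMD 2 and FMD 4 also lie above every FED mouse. In FMD vs IF, Tpm2 was at -0.74 (SE 0.32, adjusted p = 0.126) as deposited and -0.90 (adjusted p = 0.151) after scaling, not called. Tpm2 rose in IF vs FED by 1.11 (SE 0.32, adjusted p = 0.0282), a call lost without FED 1, FED 2, IF 1 or IF 3 (0.88 to 1.34), and after scaling it was at 0.93 (SE 0.34, adjusted p = 0.102), not called. The share of Tpm2 in the sum of both tropomyosins was 14.9% ± 3.91 (SD, n = 3) among FED, 37.0% ± 8.92 among IF and 10.9% ± 8.47 among FMD mice.

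The complex that branches actin filaments and its relatives stayed with the listed genes. Of the 10 actin-related proteins and Arp complex subunits, 0 were called in IF vs FED, against 10.3% higher and 1.59% lower among all genes tested. In FMD vs FED 2 rose, Arpc1b and the chromatin protein Actr6, against 35.5% of all genes tested. The median log2 fold change in FMD vs FED was 0.51, against 0.48 for all genes tested. It became -0.03 after scaling, where 0 were called, against 5.49% higher and 5.64% lower. The most abundant were Arpc3, at 108 ± 4.45 TPM (SD, n = 3) in FED and 146 ± 35.0 in FMD mice, and Arpc2, at 98.4 ± 2.51 and 143 ± 23.5 TPM. Arpc1b rose in FMD by 0.65 (SE 0.25, adjusted p = 0.0371), a call lost without FMD 1 (0.32) and without FED 1, FED 2 or any IF library. Actr3, Arpc4 and Arpc5 of the same complex had FMD vs FED values of 0.42, 0.27 and 0.52, and the dynactin subunits Actr1a and Actr10 of 0.52 and 0.49. The chromatin proteins caught by the rule were at 0.74 for Actr6, which rose and held in all 9 fits (0.61 to 0.89), and 0.38 for Actr5, which was not called.

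The cofilins, which sever actin filaments, and the profilin were not called in any comparison. Cfl1, the abundant cofilin of non-muscle cells, was at 179.8, 171 and 181 TPM in FED mice, 189, 186 and 178 TPM in IF mice and 348, 202 and 209.7 TPM in FMD mice. All values but FMD 1 lie close together, and its log2 fold change was 0.06 in IF and 0.47 in FMD vs FED. Cfl2 was at 22.6 ± 1.72, 29.8 ± 1.75 and 30.0 ± 5.25 TPM and Pfn2 at 1.57 ± 0.204, 1.68 ± 0.639 and 2.40 ± 1.03 TPM (mean ± SD, n = 3) in FED, IF and FMD mice. Cflar, not a cofilin in spite of its symbol, was at 16.7 ± 0.372, 19.9 ± 0.726 and 22.7 ± 0.984 TPM.

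Among the myosin heavy chains, 1 of 7 rose in IF and 3 rose in FMD vs FED, against 10.3% and 35.5% of all genes tested, and 0 were called after scaling. Myo1d (NCBI gene 338367), a class I myosin that links membranes to actin, was at 2.56, 2.67 and 3.04 TPM in FED mice, 5.70, 5.30 and 4.55 TPM in IF mice and 6.94, 6.0 and 5.0 TPM in FMD mice. Both diet groups lie above FED and overlap each other. It rose by 0.72 (SE 0.14, adjusted p = 0.00506) in IF and 0.89 (SE 0.14, adjusted p = 0.000673) in FMD, in all 9 fits (0.66 to 0.79 and 0.79 to 0.99), and after scaling it stood at 0.51 (SE 0.09, adjusted p = 0.00792) and 0.44 (SE 0.09, adjusted p = 0.00952), within the fold limit. Myo9b, a class IX myosin, rose by 0.67 in FMD vs FED, and Myo19, which moves mitochondria along actin, by 0.72. Both calls were lost without FMD 1 (0.45 and 0.47). The class I myosin Myo1e, the filopodial Myo10 and the non-muscle myosin II chain Myh10 had values of 0.27, 0.15 and 0.37 in FMD and 0.00, 0.07 and -0.19 in IF vs FED.

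Of the light chains that bind these motors, Myl12a (NCBI gene 67268), a regulatory chain of non-muscle myosin II, was at 45.0, 39.2 and 44.9 TPM in FED mice, 52.7, 55.8 and 50.1 TPM in IF mice and 139, 89.1 and 57.1 TPM in FMD mice. Every FMD mouse lies above every other mouse. It rose in FMD vs FED by 1.04 (SE 0.25, adjusted p = 0.00512), in all 9 fits (0.72 to 1.35), and after scaling it was at 0.49 (SE 0.18, adjusted p = 0.0861), not called. Myl6, the essential light chain and the most abundant of the 50 genes, was at 490.4, 473 and 474 TPM in FED mice, 501, 465 and 417 TPM in IF mice and 815, 515 and 517 TPM in FMD mice. Its log2 fold change was -0.06 in IF and 0.33 in FMD vs FED, with adjusted p = 0.809 and 0.111.

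Of the 5 kinesins, 2 rose in IF and 3 in FMD vs FED, against 10.3% and 35.5% of all genes tested. After scaling 0 rose in IF and 1 in FMD, against 3.69% and 5.49%. Kif21a (NCBI gene 16564), a kinesin that restrains microtubule growth, was at 5.17, 6.35 and 6.68 TPM in FED mice, 8.57, 11.4 and 9.43 TPM in IF mice and 18.0, 18.2 and 12.6 TPM in FMD mice. The groups do not overlap and are ordered FED, IF, FMD. Kif21a rose by 0.61 (SE 0.17, adjusted p = 0.0228) in IF vs FED, 1.28 (SE 0.17, adjusted p = 0.000294) in FMD vs FED and 0.67 (SE 0.17, adjusted p = 0.0398) in FMD vs IF. After scaling it rose in FMD vs FED alone, by 0.78 (SE 0.14, adjusted p = 0.00459), and it was the only cytoskeletal gene whose scaled call in that comparison held in all 9 fits (0.65 to 0.87). As deposited, the IF call was lost without FED 1, FED 2, IF 2 or IF 3 (0.51 to 0.69), and the FMD vs IF call held only when FMD 4 was the library left out (0.58 to 0.83 over all 9 fits).

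Kif1b (NCBI gene 16561), which carries mitochondria and vesicles, was at 14.1, 16.2 and 17.9 TPM in FED mice, 30.0, 28.5 and 26.3 TPM in IF mice and 26.6, 30.2 and 31.8 TPM in FMD mice. Both diets lie above FED and overlap each other. It rose by 0.78 (SE 0.12, adjusted p = 0.00198) in IF and 0.84 (SE 0.12, adjusted p = 0.000544) in FMD, in all 9 fits (0.70 to 0.86 and 0.76 to 0.92), and after scaling it was at 0.52 (SE 0.15, adjusted p = 0.0473) and 0.32 (SE 0.15, adjusted p = 0.160), not called. Kif5b, the ubiquitous conventional kinesin, was at 5.58 ± 1.01, 7.15 ± 1.05 and 9.22 ± 2.66 TPM (mean ± SD, n = 3), and its rise of 0.62 in FMD vs FED was lost without FED 1 or FMD 1 (0.42 to 0.76). Kif3b, a kinesin of ciliary and vesicle transport, and Kif13a, an endosomal motor, were at 0.52 and 0.35 in FMD and 0.50 and 0.33 in IF vs FED.

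A pair of dynein light chains, Dynll1 and Dynlt1c, were at their lowest in IF livers. Dynll1 (NCBI gene 56455), a small light chain that also joins many proteins outside dynein, was at 8.66, 8.17 and 9.29 TPM in FED mice, 5.64, 4.58 and 5.69 TPM in IF mice and 27.8, 14.2 and 11.7 TPM in FMD mice. The 3 groups do not overlap, with IF lowest and FMD highest. Dynll1 rose in FMD vs FED by 0.87 (SE 0.25, adjusted p = 0.0115) and in FMD vs IF by 1.49 (SE 0.25, adjusted p = 0.0138). In IF vs FED it was at -0.63 (SE 0.25, adjusted p = 0.0885), not called, and after scaling it fell, by -0.88 (adjusted p = 0.0126). The scaled FMD vs FED value was 0.36 (SE 0.18, adjusted p = 0.194), and the scaled FMD vs IF rise was 1.24 (SE 0.18, adjusted p = 0.0142). The FMD vs FED call was lost without FMD 1 (0.52) and the scaled IF call without IF 2 (-0.95 to -0.78). The FMD vs IF calls held without FMD 1, at 1.14 as deposited and 0.99 scaled. They were lost without IF 1 or IF 2 and, as deposited, without IF 3 (1.14 to 1.74 and 0.99 to 1.40). The window before Dynll1 is shown for its CCAAT copies, in capitals, starting 61 and 30 bases before the start (RefSeq, GRCm38.p6, chr5:115301000-115301240, minus strand, 241 bases, 5′ to 3′).
Dynll1: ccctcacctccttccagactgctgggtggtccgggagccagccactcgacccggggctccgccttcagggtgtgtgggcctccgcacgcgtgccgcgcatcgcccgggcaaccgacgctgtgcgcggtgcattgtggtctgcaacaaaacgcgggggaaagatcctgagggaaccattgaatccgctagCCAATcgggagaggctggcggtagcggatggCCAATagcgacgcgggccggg

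Dynlt1c (NCBI gene 100040563), of the Tctex light chain family, was at 12, 10.6 and 8.92 TPM in FED mice, 4.68, 7.07 and 3.42 TPM in IF mice and 17.1, 7.99 and 10.4 TPM in FMD mice. IF values lie below all others, and FED and FMD overlap. It fell in IF vs FED by -0.96 (SE 0.27, adjusted p = 0.0254) and was higher in FMD vs IF by 1.07 (SE 0.27, adjusted p = 0.0407). After scaling the IF value was -1.22 (SE 0.23, adjusted p = 0.00774) and was called in all 9 fits (-1.44 to -1.04), while as deposited the call was lost without FED 1, FED 2, IF 1 or IF 3 (-1.19 to -0.76). The FMD vs IF call was lost without FMD 1 or any FED or IF library (0.79 to 1.30) and after scaling (0.82, adjusted p = 0.0727). Dynlt1c lies on chromosome 17 beside its copies Dynlt1f, with 0 protein-coding genes between them, and Dynlt1b, with 2 between. These copies can share reads, so how their counts are split is uncertain. Dynlt1b was at 0.34 in IF and 0.56 in FMD vs FED, and Dynlt1f, at 0.690 ± 0.514 TPM (SD, n = 3) in FED, was at 0.35 and at 0.63 (SE 0.23, adjusted p = 0.0358), with FED and FMD overlapping and the call lost without FMD 1, FED 1 or FED 2 (0.45 to 0.86).

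The other dynein subunits followed the listed genes. Dynlrb1, the abundant roadblock light chain, was at 149, 157 and 138 TPM in FED mice, 179, 189 and 168 TPM in IF mice and 239, 207 and 192 TPM in FMD mice, which gave 0.51 (SE 0.12, adjusted p = 0.00434) in FMD vs FED, within the fold limit, and -0.04 after scaling. The intermediate chain Dync1i2, which attaches cargo adaptors, rose by 0.60 (SE 0.15, adjusted p = 0.00608) in FMD vs FED, a call lost without FED 1 or FMD 1 (0.43 to 0.69), and was at 0.07 after scaling. Krt19, the keratin of bile duct cells, was low, at 0.950, 1.78 and 0.760 TPM in FED mice, 1.80, 2.06 and 1.02 TPM in IF mice and 1.26, 4.07 and 1.22 TPM in FMD mice. Its groups overlapped, and its log2 fold changes were 0.29 in IF and 0.47 in FMD vs FED, with adjusted p = 0.508 and 0.191.

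**Figure D4:**
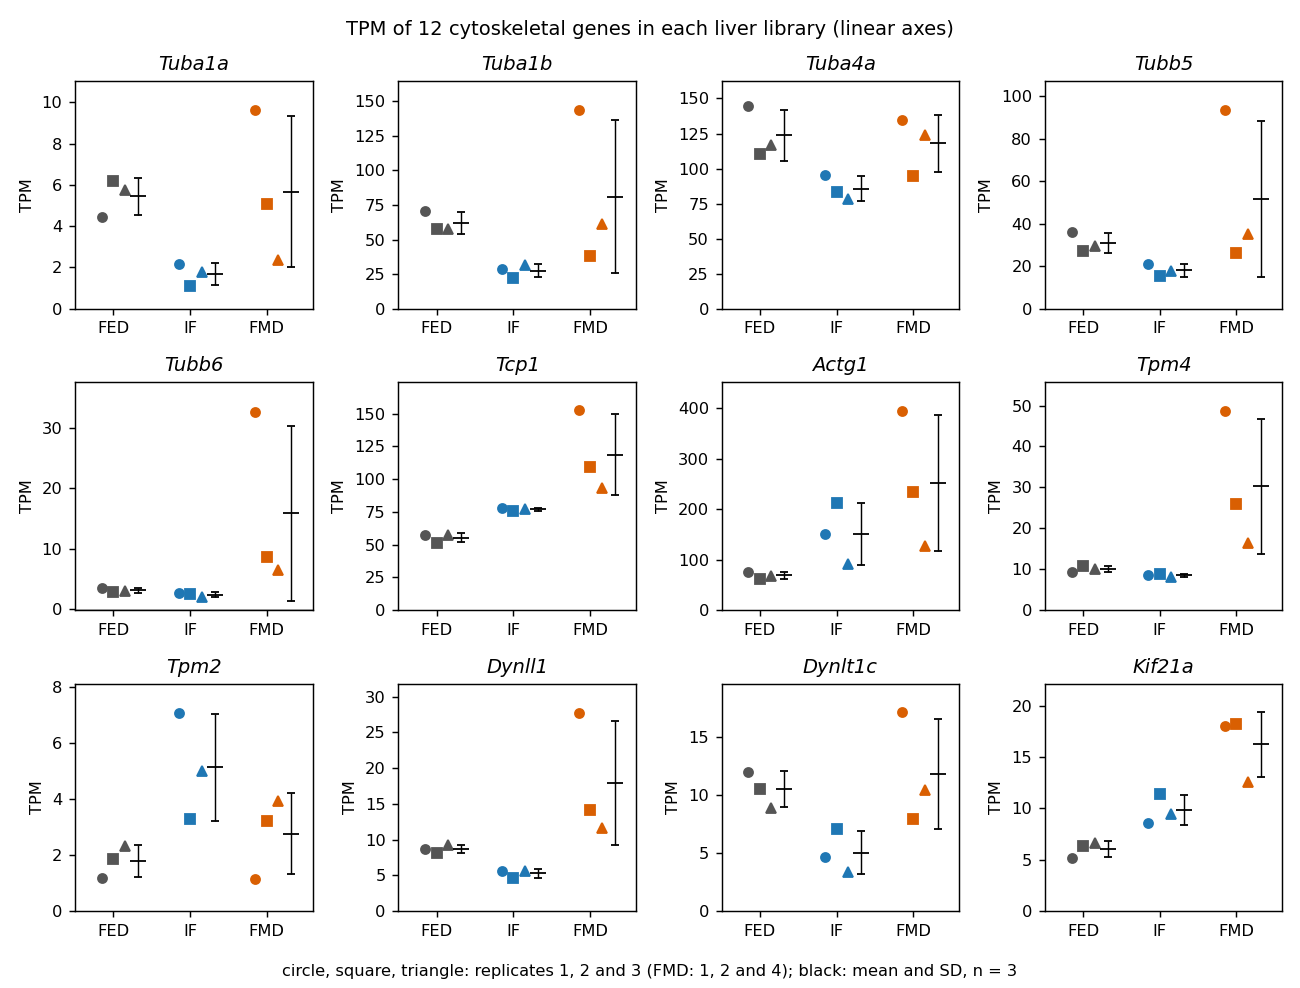
TPM (vertical, linear, a separate scale for each gene) of 12 cytoskeletal genes in each library, by group (horizontal), with the mean and SD of 3 mice in black. The alpha-tubulins and the dynein light chains have their lowest mean in IF mice, and Tpm2 has its highest mean there. The FMD 1 circle is far above the other FMD mice for Tubb6 (32.6 against 8.67 and 6.47 TPM), Tubb5 and Tuba1b.

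**Figure D5:**
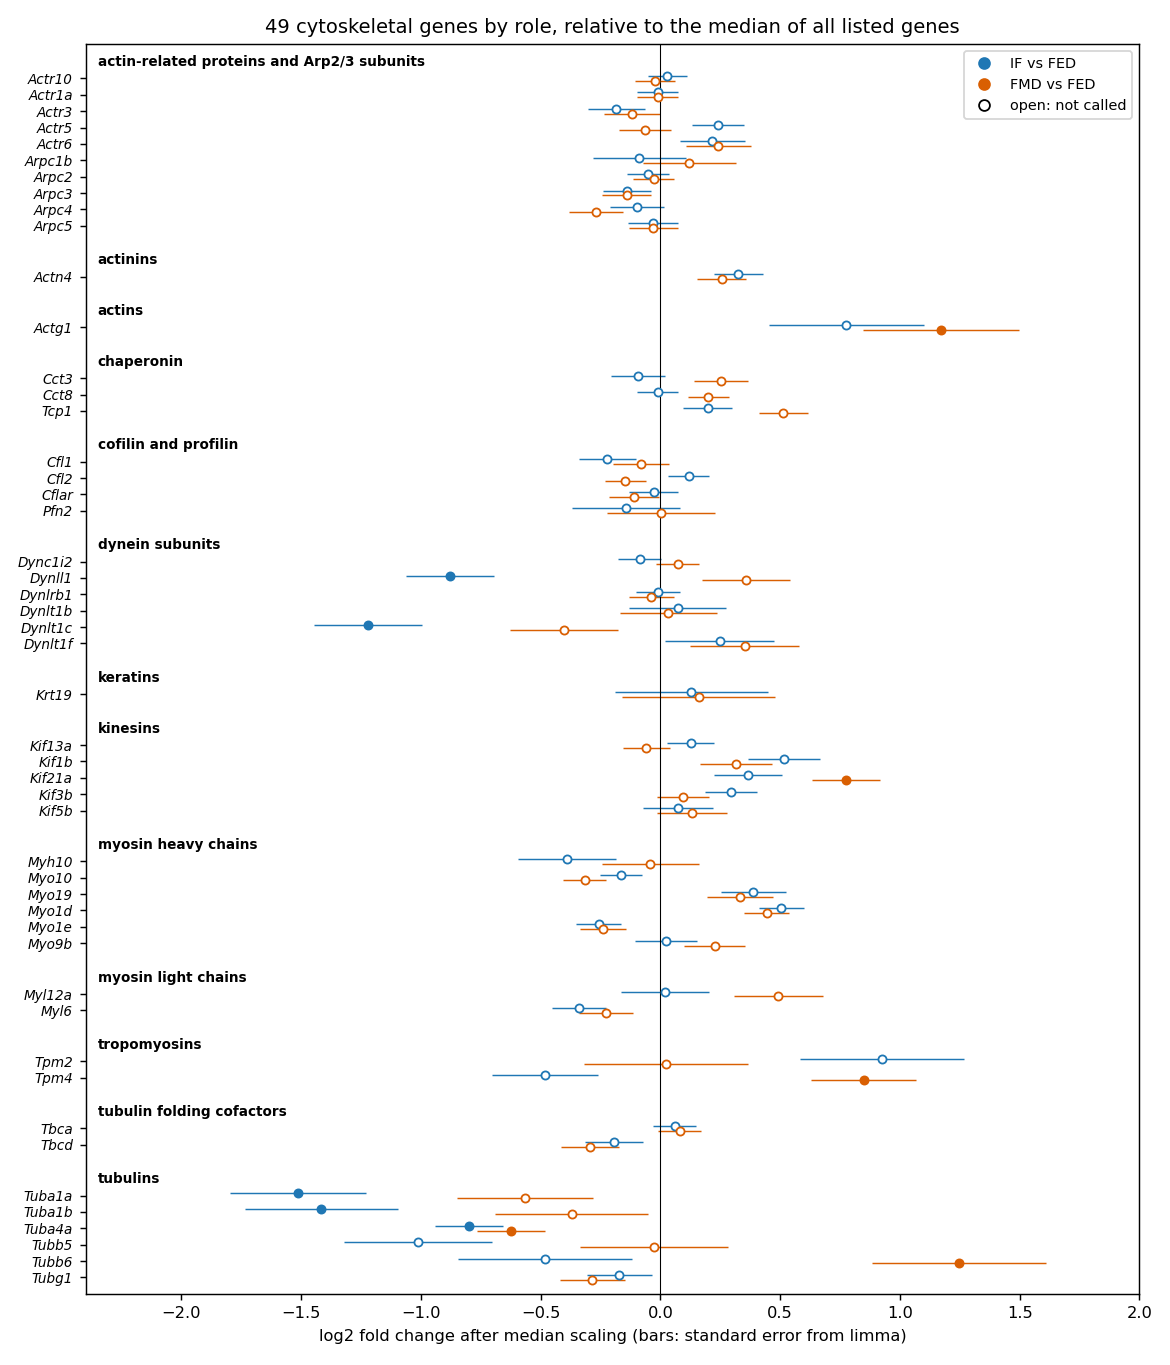
Log2 fold change after median scaling (horizontal) of 49 of the 50 genes by role (vertical), IF vs FED in blue and FMD vs FED in orange, with the standard error from limma and filled points for called genes. Filled blue points are Tuba1a, Tuba1b, Tuba4a, Dynlt1c and Dynll1, all below 0, and filled orange points are Actg1, Tubb6, Tpm4 and Kif21a above 0 and Tuba4a below 0.

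The direct comparison of the diets, FMD vs IF, asks in which genes they differ. Dynlt1c, Kif21a, Tpm4, Dynll1 and Tubb6 rose, and Tpm4, Dynll1 and Tubb6 did so after scaling too. The groups did not overlap for 19 of the 50 genes, all higher in FMD, against 36.7% of all genes tested. For comparison, 33 genes did not overlap in IF vs FED (60.6% of all genes tested), and FMD vs FED had 32 (70.7%). After scaling the numbers were 16 (26.3%) in FMD vs IF, 25 (46.2%) in IF vs FED, and for FMD vs FED 15 (36.7%). The alpha- and beta-tubulins Tuba1a, Tuba1b and Tubb5 were at 1.18 (SE 0.34, adjusted p = 0.0549), 1.31 (SE 0.37, adjusted p = 0.0530) and 1.25 (SE 0.36, adjusted p = 0.0568) in FMD vs IF, none of them called with all libraries. Without FMD 1, Tuba1b and Tubb5 were called, at 0.80 and 0.72.

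Markers of other cells were few in the table. Of the marker lists used, 1 of 13 hepatocyte markers (Ass1, at 2335 to 5153 TPM over all libraries), 1 of 12 cholangiocyte, 3 of 16 stellate and smooth muscle, 1 of 12 endothelial, 1 of 12 macrophage, 0 of 15 lymphocyte and 1 of 10 skeletal muscle markers were tested, and the others were not analysed here. None of those tested was at 0 in any library. The macrophage marker Cd68 was at 6.35 to 10.4 TPM in the FED, 3.14 to 5.99 TPM in the IF and 5.75 to 64.0 TPM in the FMD mice, and its highest value was in FMD 1, the library with the highest Tubb6, Tubb5, Tuba1b, Tpm4 and Actg1. The stellate markers Col1a1, Dcn and Pdgfrb summed to 66.6 to 93.8 TPM in the FED, 122 to 159.6 TPM in the IF and 107 to 217 TPM in the FMD mice, nearly all of it Dcn. The endothelial marker Oit3 was at 6.58 to 9.28, 6.35 to 8.02 and 8.85 to 17.2 TPM, and the muscle marker Mylpf at 0.75 to 1.43, 0.36 to 0.65 and 1.65 to 2.23 TPM. The part of such cells in the tubulin, tropomyosin and actin values was not tested. Of the proliferation list, 2 of 24 genes were tested, Mcm6 and Rrm2, and 0 were called.

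The other genes of the cytoskeleton come from lists chosen with earlier results of these data known. They were called in FMD vs FED more often as deposited than after scaling, as were all genes tested. Of all genes tested, 35.5% were higher in FMD vs FED as deposited and 5.49% after scaling, and 10.3% and 3.69% in IF vs FED. Among tubulin partners, 16 of 44 were tested, and 2 rose in IF and 5 in FMD vs FED (1 after scaling), shares near those of all genes. Clip1, which rides on growing microtubule ends, was at 3.34, 4.56 and 4.29 TPM in FED mice, 6.40, 8.01 and 6.0 TPM in IF mice and 11.4, 15.2 and 9.43 TPM in FMD mice. Every FMD mouse lies above every IF mouse and every IF mouse above every FED mouse, and Clip1 rose by 0.62 (SE 0.18, adjusted p = 0.0273) in IF and 1.35 (SE 0.18, adjusted p = 0.000308) in FMD, and in FMD by 0.87 after scaling. The end-binding Mapre3 and the prefoldin subunit Pfdn2, which hands chains to the chaperonin, rose by 0.84 and 0.59 in FMD. Among motor partners, 15 of 29 were tested, and 1 rose in IF and 8 in FMD vs FED (0 after scaling), beside the same 10.3%, 35.5% and 5.49%. The dynein regulator Ndel1, at 14.2, 12.9 and 13.5 TPM in FED mice, 16.0, 15.6 and 15.6 TPM in IF mice and 33.1, 24.2 and 27.0 TPM in FMD mice, rose by 0.99 (SE 0.13, adjusted p = 0.000267) in FMD vs FED and 0.79 (SE 0.13, adjusted p = 0.0128) in FMD vs IF. The mitochondrial kinesin adaptor Trak2 and the dynactin subunit Dctn2 rose by 0.78 and 0.64 in FMD vs FED.

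Of the actin regulators, 19 of 57 were tested. As deposited, 0 were called in IF and 5 rose in FMD vs FED (35.5% of all genes tested), none of these after scaling (5.49%). Only after scaling did 1 other gene, Tmsb4x (thymosin beta, which binds free actin), fall, by -0.92 in IF and -0.60 in FMD vs FED. It is named after its values were seen. Of all genes tested, 3.45% and 5.64% were called lower in these scaled comparisons. Tmsb4x as deposited was at -0.64 (adjusted p = 0.0597) in IF and -0.05 (adjusted p = 0.830) in FMD vs FED, not called. Dstn, an actin-severing relative of cofilin, and Twf1, which caps filaments, rose by 0.65 and 0.63, and the cofilin phosphatase Ssh2 was at 0.57, not called. Of the adhesion genes and targets of serum response factor, 9 of 29 were tested and 3 rose in FMD vs FED, against the same 35.5% (0 after scaling, against 5.49%): the calponin Cnn3 by 0.62, the adhesion protein Zyx by 0.85 and the transgelin Tagln2 by 1.19. Tagln2 was at 8.33, 7.66 and 9.01 TPM in FED mice, 6.31, 7.28 and 7.92 TPM in IF mice and 39.0, 25.2 and 8.17 TPM in FMD mice, and its FMD values spread from the FED level to that of FMD 1. Fermt2, an activator of integrins named after its values were seen, fell in FMD vs FED after scaling, by -0.78 (SE 0.11, adjusted p = 0.00142), against 5.64% of all genes tested called lower. Of the intermediate filament, plakin, lamin and septin genes, 10 of 37 were tested and 6 rose in FMD vs FED, against 35.5% (0 after scaling, against 5.49%), among them the lamin Lmnb2 by 0.83, the junction protein Jup by 0.69 and the plakin Plec by 0.74.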

How the data were processed

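The authors sequenced liver RNA of 3 FED, 3 IF and 3 FMD mice on DNBSEQ, as oligo-dT enriched, strand-specific libraries, and samples were grouped by their labels. The authors deposited TPM values with 2 decimals. The submitters' processing notes name the build mm39 and DESeq2, and the aligner and annotation were not given in the sources used here. Since TPM keeps no depth and no counts were used, intervals for counting error cannot be given. The table covers part of each library.

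TPM was analysed as log2(TPM + 1), which understates changes of low genes, with limma 3.58.1 in R 4.3.3 (lmFit, eBayes with trend, 1 fit of 9 libraries). Two-sided tests covered the 4665 genes whose mean TPM reached 1, with Benjamini-Hochberg adjustment. Shares were compared by exact permutation. Scaling factors came from 4663 genes. The fitting was tested on simulated data. Figures were drawn with matplotlib 3.10.9 and tables made with pandas 2.3.3 and numpy 2.4.6 (python 3.11.15).

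The genes and lists were chosen with earlier results of these data known. Genes were named for calls with and without scaling, the 12 largest calls without overlap per comparison, the 2 most abundant genes per role (all in roles of up to 4), roles outside the cytoskeleton, and up to 3 genes per other list by adjusted p, and the remaining genes of the 50 are named for completeness, except 1 gene, which with 1 of the other lists is not reported here. Promoters come from RefSeq (GRCm38.p6), whose coordinates were not mixed with mm39, and exons from GENCODE. Other settings tried were median scaling, quantile normalization, another pseudocount, no filter, no trend, no fold limit, separate fits of each 2 groups, the replicate number as a block, and each library left out. Scaling with the block and the tubulin ratios were added after seeing the data.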

Additional observations from a re-analysis of the deposited data

Results flagged for a closer look

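For 5 cytoskeletal genes the response to FMD differed from the response to IF by the test of the difference itself, the FMD vs IF contrast of limma on log2(TPM + 1), in which both diets share the FED libraries. The differences, all higher in FMD, were 1.98 for Tubb6 (higher in 3 of 3 FMD mice than in any IF mouse), 1.60 for Tpm4, 1.49 for Dynll1, 1.07 for Dynlt1c and 0.67 for Kif21a on the log2 scale, with adjusted p = 0.0301, 0.0193, 0.0138, 0.0407 and 0.0398. In each of the 5 genes the IF and FMD mice did not overlap, but neither did they for 36.7% of all genes tested. Of all genes tested, 4.67% were called higher in this contrast. After median scaling the differences were 1.73, 1.33, 1.24, 0.82 and 0.41, and those of Dynlt1c and Kif21a were no longer called. Tubb6, Tpm4, Dynll1 and Dynlt1c had their highest value in FMD 1, where Cd68 was also highest, and the part of that library's cell content in these differences was not tested. With any 1 library left out, the lowest differences were 1.32, 1.20, 1.14, 0.79 and 0.58.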

How the results depend on the processing

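The counts of called genes depended mainly on the scaling and on single libraries, and depth cannot be assessed from TPM. As deposited, IF vs FED had 5 higher and 3 lower genes of 50. Median scaling and quantile normalization both gave 0 higher and 5 lower, 1 fit per pair of groups gave 5 lower, and no limit on the fold change gave 8 higher. Of the 4665 genes tested, 479 were higher and 74 lower as deposited. Median scaling gave 172 and 161 of them, and quantile normalization 167 and 159. Over the same genes, 1 fit per pair of groups gave 95 lower, and no fold limit 1025 higher. The median log2 fold change of 0.24 turned to -0.0292 under median scaling and -0.0330 under quantile normalization. In FMD vs FED, the 20 higher and 0 lower became 4 and 1 under median scaling, 4 higher under quantile normalization and 32 higher with no fold limit, and the median of 0.51 became -0.00568 and 0.0384 under the scaling and the quantiles. In this comparison, 1658 of the 4665 genes tested were higher as deposited and 74 lower. Median scaling gave 256 higher and 263 lower, quantile normalization slightly fewer higher, and no fold limit 3016 higher. In FMD vs IF, the 5 higher became 3 with no filter on low values, with median scaling and with quantile normalization, and 0 with 1 fit per pair of groups. Among all genes tested, the 218 higher became 144 with no filter, 52 and 46 with scaling and quantiles, and 17 with 1 fit per pair. The median of 0.28 of the 50 genes became 0.0274 under scaling. Over the settings with 1 library left out, scaled or not, the IF vs FED counts ran from 0 to 6 higher and 0 to 6 lower (medians -0.0389 to 0.25). Those of FMD vs FED ran from 1 to 26 higher and 0 to 3 lower (medians -0.0130 to 0.66), and those of FMD vs IF from 0 to 15 higher and 0 to 1 lower (medians 0.00284 to 0.39). Among all genes tested, the higher counts ran from 122 to 515 in IF vs FED, 191 to 2100 in FMD vs FED and 6 to 768 in FMD vs IF. Calls that held with each library left out were 2 of 8 in IF vs FED (3 of 5 scaled), 11 of 20 in FMD vs FED (1 of 5 scaled) and 0 of 5 in FMD vs IF (0 of 3 scaled). Tuba4a in FMD vs FED turned from -0.0756 to 0.0390 without FED 1 and to 0.0718 without FMD 2, as deposited, and reached -0.75 when scaled without FMD 4. Scaling changed the sign of 19, 23 and 17 of the 50 genes in the 3 comparisons, none of them called. Over 30 pairs of a gene and a comparison, the settings other than leaving out a library left 202 values on the same side of the threshold. In 57 a call was lost, and in 11 a call was gained. With 1 library left out, scaled or not, 280 stayed on the same side, 232 lost a call, 26 gained a call and 2 changed sign.

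Replicate numbers are shared between groups, but deviations of same-numbered FED and IF libraries correlated at 0.177, 0.040 and 0.0035, those of FED and FMD at 0.109 and 0.00551, and those of IF and FMD at 0.110 and 0.159. All are positive, but FMD shares only 2 numbers with each group, and not every FED and IF pair exceeded 0.1. Not every library correlated best with its own number, since FED 2 correlated best with FMD 4, at 0.165. The highest value, 0.211, was that of IF 3 and FMD 4, whose numbers differ. So the numbers were not taken as pairs. With the replicate number as a block, 14 genes were higher in FMD vs IF, against 5 without it. Among all genes tested these counts were 721 and 218. With median scaling and the replicate block together, 0 were higher and 6 lower in IF vs FED (median -0.0292). Of all genes tested, 189 were higher and 184 lower. In FMD vs FED, 7 were higher and 1 lower (median 0.0542), against 301 and 325 of all genes tested. In FMD vs IF, 6 were higher (median 0.0341), against 174 of all genes tested. The causes of these shifts were not tested.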
